A study of Mus musculus with 6 samples.

Results

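The resting state described here is that of 3 libraries, called sham 1, sham 2 and sham 3, made from the hearts of sham-operated C57BL/6 mice at day 7 by double sorting Thy1+HE- cells. They are all of the sham libraries and 3 of the 6 libraries in the series, chosen by their titles. The other 3 came from hearts after transaortic constriction and enter no value below. Many fibroblasts carry the surface protein Thy1, and HE is used as the labels write it, since they do not spell it out. The labels name no transgene and no drug, give no age or sex, and do not say whether a library held 1 animal or a pool, so the spread between libraries may be partly technical. RNA was taken from whole sorted populations, in which fewer cells of a type and less RNA per cell cannot be told apart.

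Fibroblasts of the heart lie between the muscle cells and the capillaries, and they build and turn over the collagen network, the proteoglycans around it and the basement membranes next to it. They descend largely from the epicardium, and the transcription factor Tcf21 and the growth factor receptor Pdgfra are used to mark them. In the unloaded heart they divide little and also release complement proteins, chemokines and growth factor antagonists.

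The row counts of sham 1, sham 2 and sham 3 added up to 2056097, 1909337 and 2017868, which is 34.1, 30.7 and 25.4 percent of the matched reads. Leaving out symbols of the form LOC or EG and a number, 19131 remained, of which 10934 (57.2%) were detected, with at least 3 counts in each library, and 6735 (35.2%) reached 10 CPM in each, where CPM is the count scaled to the same sum in every library. A floor of 3 counts corresponds to 1.46 to 1.57 CPM, for counting error only. Levels of different genes are compared as RPKM, the deposited count scaled to row length and library size, and the median of the mean RPKM over detected genes was 7.58. Where 3 values are given for a gene they are in the order sham 1, sham 2 and sham 3.

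The label was checked against its markers. All 7 fibroblast markers were detected in every library, against 57.2% of all named genes. Decorin (Dcn), a proteoglycan that binds collagen fibrils, stood at 6702, 6456 and 5779 RPKM (6312 ± 478, SD, n = 3). Gelsolin (Gsn), an actin-severing protein that fibroblasts also release, was measured at 1349, 1739.5 and 1390.2 RPKM (1493 ± 215, SD, n = 3). The collagen I chain Col1a1 reached 636, 314 and 294 RPKM (415 ± 192, SD, n = 3). These 3 stood far above the median gene in each library, and Col1a1 was about as high in sham 2 as in sham 3 but higher in sham 1. The epicardial and fibroblast factor Tcf21 had 205, 197 and 170.4 RPKM (191 ± 18.3, SD, n = 3). The PDGF receptor Pdgfra stood at 143, 151 and 142 RPKM (145 ± 5.46, SD, n = 3). The gene of the surface protein used in the sort, Thy1, was measured at 75.4, 85.3 and 71.7 RPKM (77.5 ± 7.06, SD, n = 3). The collagen receptor Ddr2 reached 60.4, 70.7 and 57.9 RPKM (63.01 ± 6.81, SD, n = 3). The order Dcn, Gsn, Col1a1, Tcf21, Pdgfra was kept without overlap between neighbours, while the ranges of Thy1 and Ddr2 lay close to each other, with 71.7 RPKM as the lowest Thy1 value and 70.7 RPKM as the highest Ddr2 value.

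Matrix genes took the first 3 places by mean RPKM among named genes, that is, with numbered LOC and EG rows left out. Of the 30 highest of all rows 18 were numbered, and 1 numbered row, at a mean of 8655 RPKM, ranked above all named genes. Dcn (chromosome 10, 97479500 to 97518163 in GRCm38) was the highest of all named genes, and its lowest library lay above the highest library of every gene ranked after it. The collagen-binding glycoprotein Sparc had 3129, 2530.2 and 2570.3 RPKM (2743 ± 335, SD, n = 3). Biglycan (Bgn), the closest relative of decorin, stood at 2436, 2426 and 3012 RPKM (2625 ± 336, SD, n = 3). Beta-2 microglobulin (B2m), the light chain of MHC class I, was measured at 2854, 2293 and 2359.6 RPKM (2502 ± 307, SD, n = 3). The ranges of these 3 overlapped, so their order among themselves was not resolved. The calcification inhibitor Mgp reached 1549, 1335 and 1161 RPKM (1349 ± 195, SD, n = 3). Dermatopontin (Dpt), which binds decorin, had 1353, 1195 and 1148 RPKM (1232 ± 107, SD, n = 3). The hyaluronan-binding protein Tnfaip6 stood at 1112, 1305 and 1229.8 RPKM (1216 ± 97.3, SD, n = 3). Lumican (Lum), a proteoglycan of fibrils, was measured at 1176, 1056 and 1105 RPKM (1112 ± 60.2, SD, n = 3). Nidogen 1 (Nid1), a linker of basement membranes, reached 1012, 1103 and 1034 RPKM (1049.5 ± 47.4, SD, n = 3). The secreted IGF-binding protein Igfbp7 had 977, 926 and 1072 RPKM (992 ± 74.1, SD, n = 3). Of these 6 genes, Mgp and Dpt were highest in sham 1 and lowest in sham 3, and Nid1 varied least.

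Other genes among the 30 with the highest RPKM had varied roles. The interferon-induced membrane protein Ifitm3 stood at 1321, 1536 and 1356 RPKM (1404 ± 116, SD, n = 3). The complement inhibitor Serping1 was measured at 1395, 1257 and 1172 RPKM (1275 ± 113, SD, n = 3). The immediate early factor Egr1 reached 1410.3, 1331 and 1431 RPKM (1391 ± 52.8, SD, n = 3). The AP-1 subunit Fosb had 1172, 1297 and 1075 RPKM (1181 ± 111, SD, n = 3). The metal-binding metallothionein Mt2 stood at 909.8, 755 and 1115 RPKM (926 ± 180.3, SD, n = 3). The surface antigen Sca-1, encoded by Ly6a, was measured at 754, 883 and 825 RPKM (821 ± 64.9, SD, n = 3). Mt2 varied more than the other genes of this paragraph, with the highest library 1.48 times the lowest.

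**Figure D1:**
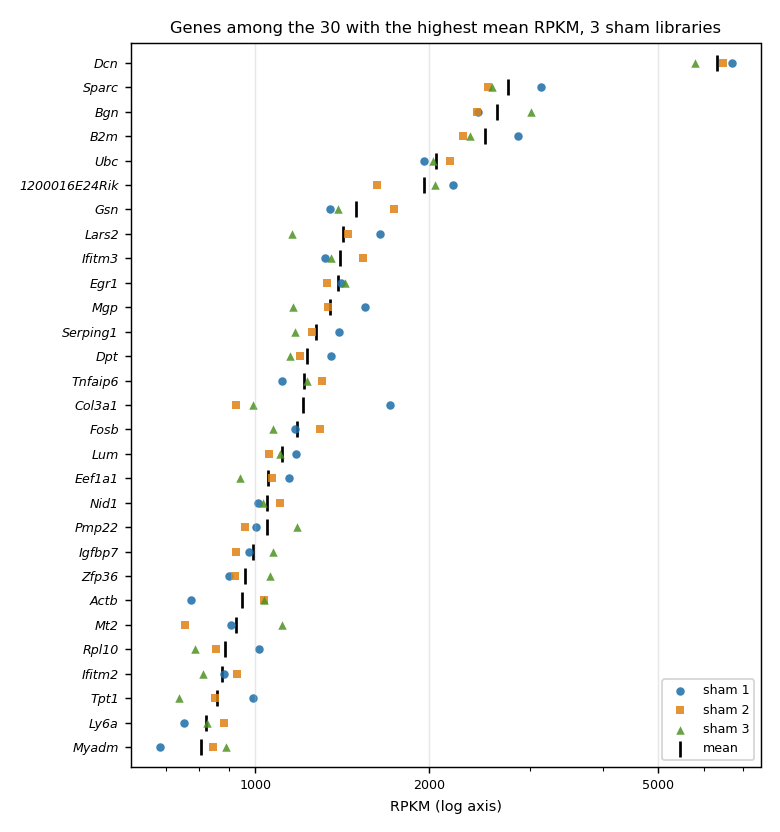
RPKM (log axis) of 29 of the 30 named genes with the highest mean RPKM, 1 row per gene, with a point for each of the 3 sham libraries and a black bar at their mean. Dcn lies apart from all others, between 5779 and 6702 RPKM, while neighbouring genes below it mostly overlap, and Col3a1 has sham 1 well to the right of the other 2 libraries.

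Coverage along 1 of these rows was uneven. For Lars2, a mitochondrial leucyl-tRNA synthetase, the deposited reports give a highest depth along the row 25.9 times its mean depth, against a median of 6.07 over the 6735 well measured genes, so its reads pile up in part of the row. Numbered LOC and EG rows took 22.7%, 19.8% and 19.7% of counts. Of 7327 numbered symbols, 3937 carried the number of a RefSeq gene, and 2165 of these were pseudogenes. The numbered row ranked above all named genes, at a mean of 8655 RPKM, had no such match. Most numbered rows among the 30 highest of all rows had none either, so what they measure is not known here. Several other numbered rows match processed copies of abundant genes: the 5 pseudogene rows of the ribosomal gene Rpl10 held 6.47 times the counts of Rpl10 itself, and those of Tpt1 2.79 times. The sources used here do not say where reads with several matches were counted, so the levels of Rpl10, Tpt1 and similar genes with near-identical copies are uncertain.

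The matrix lists held 306 genes found in the files, of which 237 were detected and 195 well measured (63.7%, against 35.2% of all named genes). Together they took 12.3%, 12.5% and 12.4% of counts in sham 1, sham 2 and sham 3. Among them the 16 small leucine-rich proteoglycans took 24650, 23738 and 24131 CPM, of which Dcn alone took 11698, 11251 and 10088 CPM. The basement membrane-linked member Prelp reached 742, 760.3 and 723 RPKM. Osteoglycin (Ogn) had 501, 400.3 and 400.3 RPKM. Asporin (Aspn), which binds collagen and TGF-beta, stood at 198, 226 and 284 RPKM. Ogn was highest in sham 1, Aspn in sham 3, and their ranges did not overlap. Kera, a member best known from the cornea, was near the floor at 1.01, 1.36 and 0.771 RPKM.

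Of 44 collagen chains found, 31 were detected, against 57.2% of all named genes, and 23 were well measured, against 35.2%. The collagen III chain Col3a1 was measured at 1714, 926 and 992 RPKM. The second chain of collagen I, Col1a2, reached 654, 457 and 463 RPKM. Sham 1 was the highest for Col3a1, Col1a2 and Col1a1, and sham 2 and sham 3 lay close together. Col1a1 was the only one of these 3 past a 2-fold spread, at which the highest library is at least 2 times the lowest in CPM (2.16 times here). A spread of that size was found in 2.86% of the 5447 named genes with a mean of at least 20 CPM. The collagen V chain Col5a1 had 109, 122 and 117 RPKM. Its partner Col5a2 stood at 45.6, 45.4 and 43.96 RPKM. Col5a3 was lower, at 14.6, 18.9 and 18.8 RPKM, Col27a1 stood at 4.58, 5.005 and 4.99 RPKM and Col11a1 at 0.271, 0.292 and 0.276 RPKM. Col24a1 missed the detection rule.

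Among the other collagens, a chain of the microfibrillar collagen VI led by mean RPKM. This chain, Col6a2, was measured at 240.4, 268 and 229.5 RPKM. Its partner Col6a1 reached 139, 171 and 152 RPKM. The long chain Col6a3 had 57.1, 73.1 and 59.3 RPKM. Col6a6 was lower and uneven, at 11.9, 9.93 and 5.20 RPKM. Collagen XV (Col15a1), of the zone next to basement membranes, stood at 177, 233 and 178 RPKM. The short-chain collagen Col8a1 was measured at 121, 181 and 277 RPKM. Col8a1 was past a 2-fold spread, lowest in sham 1 and highest in sham 3, where it lay above Col6a2. The ranges of Col15a1 and Col6a2 overlapped. The network chains of basement membranes followed, Col4a1 with 99.9, 134 and 122 RPKM and Col4a2 with 78.9, 106 and 111 RPKM. Their ranges overlapped. Col4a3 and Col4a5 were detected at 17.1, 26.4 and 33.2 RPKM and 17.6, 19.2 and 15.98 RPKM. The fibril-associated chains were Col14a1 with 70.5, 60.8 and 65.3 RPKM and Col12a1 with 6.25, 7.15 and 9.33 RPKM. Col13a1 and Col6a4 had no count in any library.

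All 33 genes of collagen processing were detected, against 57.2% of all named genes. The procollagen C-proteinase enhancer Pcolce reached 314, 401 and 396 RPKM. The prolyl hydroxylase subunit P4hb had 199.5, 193 and 177 RPKM. The collagen chaperone Serpinh1 stood at 144, 152 and 113 RPKM. Of the crosslinking lysyl oxidases, Loxl2 stood at 66.99, 84.3 and 74.03 RPKM, Loxl1 at 55.01, 69.4 and 63.1 RPKM and Lox at 74.2, 53.5 and 55.7 RPKM, with overlapping ranges, while Loxl4 was at 3.35, 3.61 and 4.91 RPKM. P4ha3, a catalytic subunit of prolyl hydroxylase, was high in sham 1 alone, at 6.29, 0.970 and 1.53 RPKM.

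Elastic and microfibril genes were detected in 18 of 21 cases (85.7%, against 57.2% of all named genes). The microfibril-associated protein Mfap4 was measured at 879, 569 and 749 RPKM. Fibrillin 1 (Fbn1), the backbone of microfibrils, reached 326, 463 and 524 RPKM. Its partner Mfap5 had 353, 426 and 442 RPKM. Fibulin 2 (Fbln2) stood at 221, 311 and 358 RPKM. Fbn1 and Fbln2 ranked sham 3 first and sham 1 last, whereas Mfap4 was highest in sham 1. Elastin itself (Eln) was measured at 92.4, 79.3 and 83.5 RPKM. The latent TGF-beta binding proteins were led by Ltbp4 at 228, 366 and 310.0 RPKM, ahead of Ltbp1 at 54.4, 57.8 and 49.6 RPKM.

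Basement membrane genes other than collagen IV were led by Nid1 and by 1 laminin set. The laminin gamma-1 chain Lamc1 reached 462, 573 and 504 RPKM. The alpha-2 chain of laminin (Lama2), which muscle and nerve sheaths use, had 165, 209 and 190.1 RPKM. The vascular alpha-4 chain Lama4 stood at 102, 127 and 117 RPKM. The beta-1 chain Lamb1 was measured at 117, 127 and 112 RPKM. Perlecan (Hspg2), a heparan sulfate proteoglycan, reached 124, 186 and 135 RPKM. Lama5, of epithelial and vascular basement membranes, was low at 0.821, 1.49 and 2.25 RPKM. Lama3 missed the detection rule, and Lama1 had no count.

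Matricellular and adhesive glycoproteins spanned a wide range. Periostin (Postn), a protein of growing and wounded matrix, had 314, 217 and 386 RPKM. Thrombospondin 1 (Thbs1) stood at 243, 332 and 400.4 RPKM. Fibronectin (Fn1) was measured at 160.5, 106 and 108 RPKM. Connective tissue growth factor (Ccn2) reached 88.7, 159 and 263 RPKM. Its relative Ccn1 had 107, 203 and 204 RPKM. Fn1 was highest in sham 1, Thbs1 and Ccn2 in sham 3, and Ccn2 was past the 2-fold spread. Tnc, tenascin C, was low at 4.82, 3.73 and 6.24 RPKM. Cthrc1, a secreted collagen-associated protein, had 16.9, 0.456 and 3.02 RPKM and missed the detection rule because of sham 2. The Sparc relative Sparcl1 stood at 374, 369.9 and 379 RPKM. Its spread was the smallest of the glycoproteins named here.

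Of the hyaluronan synthases, Has1 was the highest in each library. This synthase, Has1, was measured at 102, 119 and 121 RPKM. Has2 followed at 56.1, 89.6 and 88.8 RPKM and Has3 was near the floor at 0.916, 0.808 and 0.594 RPKM. Versican (Vcan), a proteoglycan that binds hyaluronan, reached 150.3, 199 and 236 RPKM. Cd44, the cell surface receptor of hyaluronan, stood at 18.97, 19.9 and 22.3 RPKM.

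The highest protease inhibitors lay above the highest matrix proteases. Gelatinase A (Mmp2) had 311, 326 and 252 RPKM. Its membrane-bound activator Mmp14 stood at 66.5, 74.8 and 52.7 RPKM. The versican-cleaving protease Adamts1 was measured at 240.0, 303 and 328 RPKM. The serine protease Htra3 reached 357, 318 and 245 RPKM. Of 21 Mmp genes, 13 were detected, near the 57.2% of all named genes, and Mmp9, Mmp12, Mmp7, Mmp20 and Mmp25 had no count in any library. The metalloproteinase inhibitor Timp2 had 662, 649 and 673 RPKM. The matrix-bound inhibitor Timp3 stood at 380.4, 409 and 442 RPKM. Timp1 was lower, at 135, 126 and 114 RPKM. The peptidase inhibitor Pi16 was measured at 428, 609.9 and 572 RPKM. Timp2 was above Timp3 and Timp3 above Timp1 in each library.

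**Figure D2:**
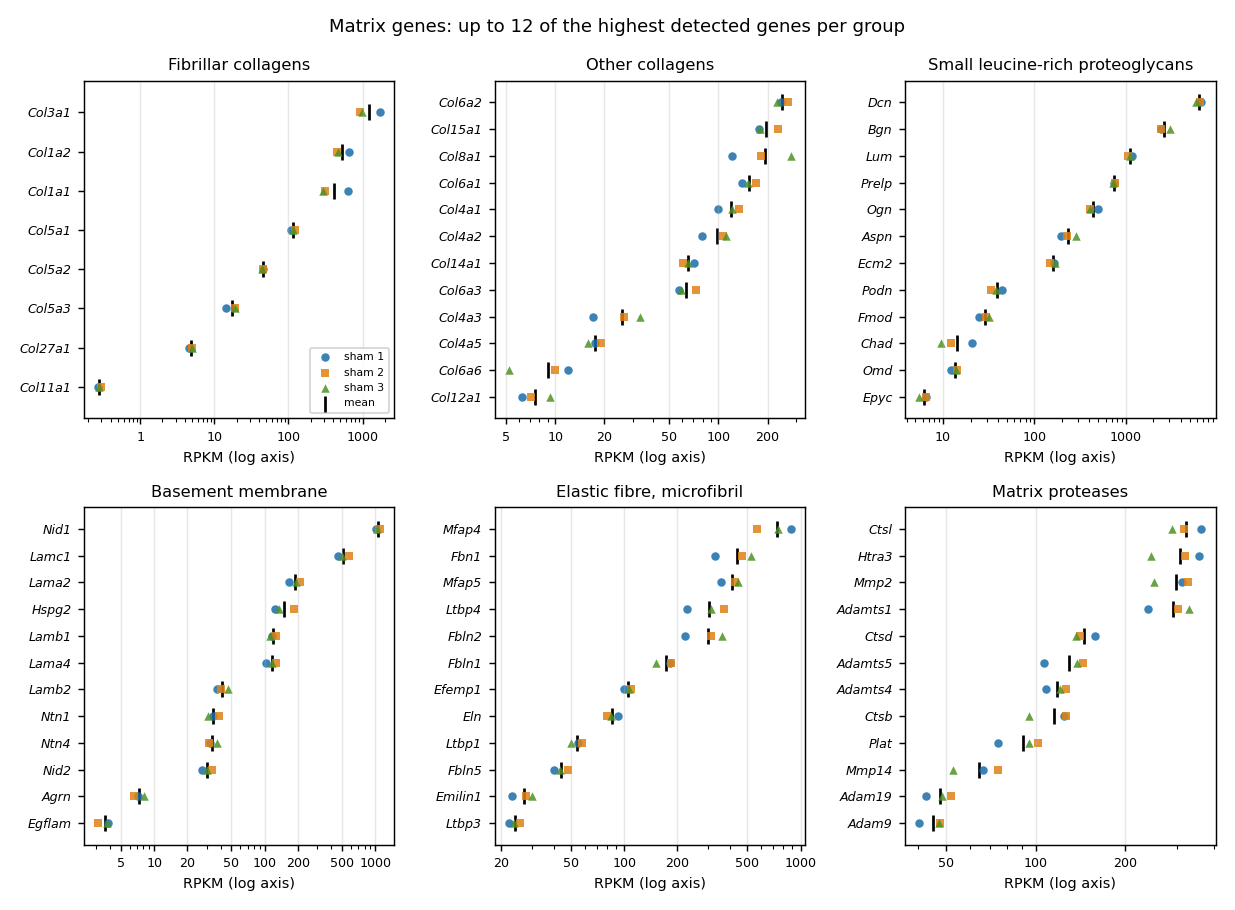
RPKM (log axes) of matrix genes in 6 groups, up to 12 detected genes per group, with a point for each sham library and a black bar at the mean. The fibrillar chains Col3a1, Col1a2 and Col1a1 have sham 1 to the right, Col8a1 and the microfibril genes Fbn1 and Fbln2 have it to the left, and most proteoglycans have 3 points nearly on top of each other.

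Receptor genes took 2.07%, 2.36% and 2.38% of counts, and 218 of 338 found were detected (64.5%, against 57.2% of all named genes). Among 58 receptor tyrosine kinases, 41 were detected and 20 well measured, the latter against 35.2% of all named genes. The Gas6 receptor Axl reached 357, 415 and 404 RPKM. Its lowest library lay above the highest library of every other receptor tyrosine kinase. Its ligands were detected as well: Gas6 stood at 61.99, 44.7 and 52.6 RPKM and Pros1 at 41.99, 49.7 and 38.02 RPKM, while the related receptors Mertk and Tyro3 were at 3.32, 2.69 and 7.48 RPKM and 0.987, 1.33 and 1.26 RPKM.

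Pdgfra, given above, came next without overlap with its neighbours. The second PDGF receptor (Pdgfrb), which pericytes also carry, had 57.96, 74.1 and 78.2 RPKM. Sham 3 was the highest and sham 1 the lowest. Of the PDGF ligands, Pdgfa stood at 15.5, 11.98 and 17.2 RPKM and Pdgfd at 3.84, 3.25 and 5.87 RPKM, whereas Pdgfb and Pdgfc had at most 3 counts per library. The epidermal growth factor receptor Egfr stood at 56.7, 56.8 and 51.5 RPKM. Its ligand Hbegf stood at 14.1, 16.1 and 14.4 RPKM and Ereg at 7.14, 5.13 and 6.67 RPKM. The FGF receptor Fgfr1 was measured at 45.5, 55.7 and 54.4 RPKM. Fgfr2 (1.04, 0.408 and 2.12 RPKM) and Fgfr3 (0.701, 0.504 and 1.07 RPKM) were near the floor. Among FGFs, Fgf18 was highest at 47.1, 38.6 and 62.8 RPKM, and Fgf2 was uneven at 24.3, 6.85 and 17.3 RPKM, lowest in sham 2.

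The angiopoietin receptor Tie2 (Tek), best known from endothelium, reached 39.97, 43.3 and 42.98 RPKM. The endothelial genes Pecam1 (2.08, 3.85 and 3.19 RPKM) and Cdh5 (1.26, 2.99 and 3.46 RPKM) were much lower in the same libraries, and Tie1, the sister receptor of Tek, missed the detection rule at 0.127, 0.958 and 0.517 RPKM. Not all genes of the endothelial list were low, as the range of Fabp4, given below, overlapped that of Tek. The part of endothelial cells in the level of Tek was not tested. The Tek ligand Angpt1 stood at 13.3, 10.7 and 10.5 RPKM. The IGF-1 receptor Igf1r had 16.6, 20.8 and 24.03 RPKM. Its ligand Igf1 stood at 42.4, 32.3 and 38.4 RPKM. The GDNF-family receptor Ret stood at 19.5, 22.6 and 17.96 RPKM. Gdnf itself had 1 to 3 counts per library. Ryk, a Wnt co-receptor, stood at 19.6, 25.99 and 18.6 RPKM and Insr, the insulin receptor, at 10.7, 7.26 and 10.8 RPKM. The neurotrophin receptor Ntrk2 (2.39, 4.70 and 8.23 RPKM) was past the 2-fold spread, highest in sham 3. Alk, Ros1, Flt3, Epha5, Epha6 and Epha10 had no count.

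TGF-beta family receptors were detected in 13 of 17 cases (76.5%, against 57.2% of all named genes). None of the 12 compared was past 2-fold, against 2.86% of all genes compared, and their median ratio of highest to lowest library was 1.22, against 1.26 over all genes. The type II BMP receptor Bmpr2 was measured at 124, 105 and 123 RPKM. Betaglycan (Tgfbr3), the co-receptor, reached 78.04, 108 and 108 RPKM. The type II TGF-beta receptor Tgfbr2 had 90.3, 90.2 and 94.9 RPKM. Its type I partner Tgfbr1 stood at 39.1, 39.4 and 37.7 RPKM. Tgfbr2 was above Tgfbr1 in each library, whereas Bmpr2 and Tgfbr3 overlapped. Bmpr1a stood at 56.2, 59.9 and 70.4 RPKM and Bmpr1b missed the detection rule. Of the ligands, Tgfb2 (30.1, 36.1 and 30.4 RPKM) and Tgfb3 (24.3, 23.8 and 28.8 RPKM) were above Tgfb1 (10.3, 14.7 and 11.3 RPKM) in each library. The secreted follistatin-like protein Fstl1 was measured at 660.5, 781 and 849.8 RPKM. Bmp4 (44.4, 37.5 and 47.02 RPKM) and Bmp6 (24.9, 31.1 and 37.4 RPKM) led the BMPs, and Twsg1, a BMP-binding protein, stood at 192, 175 and 176 RPKM.

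G protein-coupled receptors were detected in 64 of 123 cases (52.0%, against 57.2% of all named genes). The Cxcl12 scavenger receptor Ackr3 reached 179, 195 and 214 RPKM. The thrombin receptor F2r had 128, 152 and 185 RPKM. The adhesion receptor Adgrd1 stood at 103, 133 and 133 RPKM. The chemerin receptor Cmklr1 was measured at 82.9, 91.2 and 98.7 RPKM. Rarres2, which encodes chemerin, stood at 176, 154 and 119.7 RPKM. The lysophosphatidic acid receptor Lpar1 reached 67.9, 76.8 and 87.99 RPKM. Enpp2, the enzyme that makes this lipid, stood at 77.1, 83.5 and 63.7 RPKM. F2r and Lpar1 had the same library order, lowest in sham 1 and highest in sham 3. Sham 3 was the highest for 27 of the 36 receptors compared, and for 2068 of all 5447 genes compared. For 3 of the 36 (8.33%) the highest library was at least 2-fold over the lowest, against 2.86% of all genes compared. The angiotensin receptor Agtr1a was low but even, at 3.38, 3.40 and 3.44 RPKM. Of 17 CCR and CXCR chemokine receptors found, only Cxcr4 was detected, at 1.36, 2.63 and 2.49 RPKM, against 57.2% of all named genes. No count was found for 9 of the 17, against 21.1% of all named genes.

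Cytokine receptors were detected in 26 of 37 cases, against 57.2% of all named genes. Glycoprotein 130 (Il6st), the signal subunit shared by several cytokine receptors, had 218, 241 and 211 RPKM. The oncostatin M receptor Osmr stood at 93.04, 91.1 and 91.5 RPKM. Osm itself had no count. The glycoprotein 130 cytokine Il6 was measured at 412, 338 and 353 RPKM. Il6ra stood at 16.5, 22.1 and 21.4 RPKM, Lif at 1.72, 1.59 and 2.75 RPKM and Il11 at 8.93, 5.05 and 8.67 RPKM. The interleukin-1 receptor Il1r1 reached 69.4, 60.1 and 72.8 RPKM. The interferon-gamma receptor Ifngr1 had 67.5, 79.4 and 72.9 RPKM. The growth hormone receptor Ghr stood at 58.9, 59.4 and 64.6 RPKM. None of the 17 cytokine receptors compared reached a 2-fold spread, which 2.86% of all genes compared did.

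Among integrins, 18 of 26 were detected, against 57.2% of all named genes. The shared beta-1 subunit Itgb1 was measured at 139.7, 171 and 179 RPKM. The fibronectin-binding alpha-5 subunit Itga5 reached 47.6, 54.3 and 64.5 RPKM. The alpha-v subunit Itgav had 42.2, 42.4 and 45.7 RPKM. The collagen-binding alpha-11 subunit Itga11 stood at 28.5, 25.9 and 22.5 RPKM. Itga1, another collagen-binding subunit, stood at 12.97, 16.3 and 16.2 RPKM. Itgax and Itgad, of leukocytes, had no count. The large endocytic receptor Lrp1 was measured at 163, 233 and 203 RPKM. The scavenger receptor Scara5 reached 140.4, 120.2 and 97.7 RPKM. Scara5 was highest in sham 1 and lowest in sham 3, the reverse of Itgb1 and Itga5. Of the Notch receptors, Notch2 stood at 26.4, 35.5 and 35.1 RPKM, Notch3 at 19.02, 23.5 and 39.01 RPKM and Notch1 at 6.75, 9.42 and 8.30 RPKM.

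**Figure D3:**
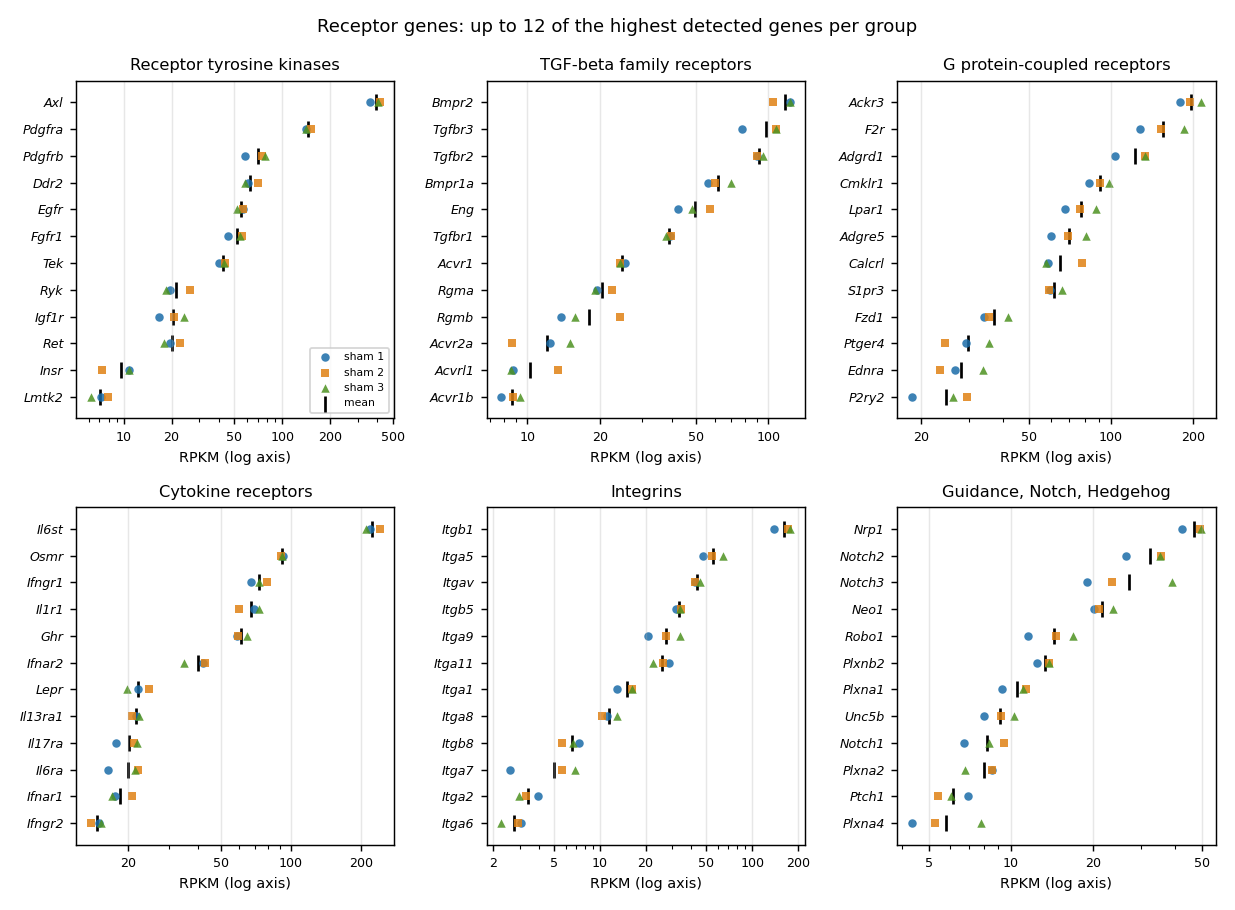
RPKM (log axes) of receptor genes in 6 groups, up to 12 detected genes per group, with a point for each sham library and a black bar at the mean. Axl is separated from the other receptor tyrosine kinases, Il6st from the other cytokine receptors and Itgb1 from the other integrins, and most G protein-coupled receptors have sham 3 to the right.

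Ligand lists held 224 genes found, of which 126 were detected (56.2%, against 57.2% of all named genes), and 16 of 24 complement genes were detected. The neutrophil chemokine Cxcl1 had 603, 563 and 452 RPKM. The monocyte chemokine Ccl7 stood at 185, 226 and 139.9 RPKM. Eotaxin (Ccl11) was measured at 242, 170.4 and 116 RPKM. The monocyte chemokine MCP-1, encoded by Ccl2, reached 92.2, 116 and 116 RPKM. Ccl11 was past the 2-fold spread, highest in sham 1 and lowest in sham 3, and so was Il33, an alarmin (78.4, 25.5 and 38.7 RPKM, highest in sham 1). Cxcl12, the ligand of Ackr3, stood at 8.90, 9.78 and 10.04 RPKM. The central complement protein C3 had 821, 589.6 and 616 RPKM. The terminal complement protein C7 stood at 183, 154 and 183 RPKM. C3 was highest in sham 1, and 10 of 13 complement genes compared were highest there, against 1334 of all 5447 genes. Clu and Cfb were past the 2-fold spread, with 40.1, 12.4 and 19.2 RPKM and 15.9, 5.65 and 8.21 RPKM. Cfd, the complement protease of adipocytes, had no count. The Wnt antagonist Sfrp1 was measured at 203, 164 and 208 RPKM. The angiopoietin-like protein Angptl2 reached 131, 138 and 125 RPKM. The inducible prostaglandin synthase Ptgs2 had 211, 193 and 228 RPKM. The angiotensin-converting enzyme Ace stood at 135, 145 and 147 RPKM.

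Transcription factor genes took 4.05%, 4.26% and 4.22% of counts, with 286 of 440 found detected (65.0%, against 57.2% of all named genes) and 214 well measured. Some of these genes are also on the list of immediate early genes. The highest were immediate early factors, Egr1 and Fosb. The zinc finger factor Klf4 was measured at 607, 662 and 497 RPKM. The stress-response factor Atf3 reached 315, 285 and 303 RPKM. The AP-1 subunit Fos had 322, 269 and 262 RPKM. The related subunit Junb stood at 203, 224 and 225 RPKM. The orphan nuclear receptor Nr4a1 was measured at 304, 375 and 455 RPKM. The growth regulator Myc reached 303, 242 and 291 RPKM. The lowest Klf4 library (497 RPKM) lay above the highest Nr4a1 value, the ranges of Atf3, Fos and Myc overlapped, and Junb lay below them. The full list of immediate early and heat shock genes, a class that can be induced while a tissue is taken apart and sorted, took 24064, 23967 and 23132 CPM. Of its 39 genes 38 were detected (97.4%, against 57.2% of all named genes). The inducible heat shock genes Hspa1a (29.9, 25.8 and 22.9 RPKM) and Hspa1b (21.4, 16.1 and 12.5 RPKM) were lower than the constitutive Hspa8 (794, 748 and 598 RPKM). None of the 36 compared reached a 2-fold spread, against 2.86% of all genes, and their median ratio of highest to lowest library was 1.30, against 1.26 over all genes. The part of cell isolation in these levels was not tested.

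The promoters of the 4 immediate early genes highest in RPKM among those with a promoter entry that was used are printed beside those of the highest-ranked matrix glycoprotein and proteoglycan with a single entry in the RefSeq promoter table, so that the sequence ahead of these abundant transcripts can be read. Each is the 150 bases before the annotated start, 5′ to 3′ on the strand of the gene, from RefSeq (GRCm38.p6). Capitals mark the GC box letters GGGCGG or their reverse complement, the cyclic AMP response element letters TGACGTCA and the CArG box, which binds serum response factor, searched on both strands in the 250 bases before the start, where matches may overlap.
Sparc: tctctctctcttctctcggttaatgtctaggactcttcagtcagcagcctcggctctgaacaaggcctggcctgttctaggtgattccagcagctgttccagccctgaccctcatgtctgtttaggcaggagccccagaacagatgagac
Bgn: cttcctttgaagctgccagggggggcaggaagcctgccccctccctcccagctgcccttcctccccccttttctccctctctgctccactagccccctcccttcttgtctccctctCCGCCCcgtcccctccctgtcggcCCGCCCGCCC
Fosb: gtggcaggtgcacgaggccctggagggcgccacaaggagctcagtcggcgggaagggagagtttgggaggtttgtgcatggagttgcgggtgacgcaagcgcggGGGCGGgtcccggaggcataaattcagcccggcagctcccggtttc
Zfp36: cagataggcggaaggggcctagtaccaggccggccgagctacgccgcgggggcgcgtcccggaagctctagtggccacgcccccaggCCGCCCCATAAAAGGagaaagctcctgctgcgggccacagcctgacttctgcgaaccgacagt
Klf4: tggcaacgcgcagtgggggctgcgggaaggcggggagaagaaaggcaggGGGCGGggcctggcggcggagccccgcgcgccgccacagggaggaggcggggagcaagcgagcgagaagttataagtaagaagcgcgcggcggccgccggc
Dusp1: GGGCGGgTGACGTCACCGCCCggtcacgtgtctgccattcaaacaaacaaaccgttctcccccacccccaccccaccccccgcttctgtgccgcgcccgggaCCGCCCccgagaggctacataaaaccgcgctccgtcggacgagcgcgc
The windows lie at chr11:55420081-55420230 (-) for Sparc, chrX:73483451-73483600 (+) for Bgn, chr7:19310046-19310195 (-) for Fosb, chr7:28379229-28379378 (-) for Zfp36, chr4:55532476-55532625 (-) for Klf4 and chr17:26508473-26508622 (-) for Dusp1. Of the 27 immediate early genes of the list with an entry that was used, 23 (85.2%) held the GC box, against 32.7% of 32851 promoters, with no matching for base composition. For this and the next motifs, a gene counted if any of its entries matched, whereas the background is a share of single entries. That background took every entry and was not limited to detected genes, so the shares are not in like units. The CArG box was found in 2 of the 27 (7.41%, against 1.47%) and the letters TGACGTCA in 2 (7.41%, against 1.55%). The TATA box letters TATAAA were in 6 (22.2%, against 12.4%), and in none of the promoters printed here. In Zfp36, which encodes an mRNA-destabilising protein (901, 924 and 1059.5 RPKM), the CArG box lay at -58 to -49 and shared a base with a GC box at -63 to -58. In Dusp1, a MAP kinase phosphatase gene (592, 504 and 654 RPKM), TGACGTCA lay at -143 to -136 between GC boxes at -150 to -145 and -135 to -130. Sparc held none of the searched letters in its window. These matches describe letters only, and binding was not measured.

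Factors of the cardiac and epicardial lineages followed. Tcf21 was the highest. The T-box factor Tbx20 had 117, 128 and 156 RPKM. The zinc finger factor Gata4 stood at 25.5, 24.1 and 28.1 RPKM. Its relative Gata6 was measured at 14.8, 11.5 and 14.6 RPKM. The MADS-box factor Mef2a reached 46.5, 42.6 and 54.9 RPKM. Tbx20 and Tcf21 did not overlap, and Tbx20 was highest in sham 3, where Tcf21 was lowest. Tbx18 (4.95, 7.77 and 8.41 RPKM), Hand2 (2.98, 7.23 and 7.58 RPKM), Wt1 (3.50, 3.26 and 3.73 RPKM) and Tbx5 (1.69, 2.66 and 2.19 RPKM) were detected at low levels. Nkx2-5 and Isl1, of cardiomyocytes and their progenitors, had no count.

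The circadian and hypoxia-linked bHLH factor Bhlhe40 had 385, 452 and 453 RPKM. The bHLH inhibitor Id3 stood at 218, 214 and 221 RPKM. The E protein Tcf4 was measured at 112, 120.1 and 117 RPKM. The mesenchymal zinc finger factor Zeb1 reached 109, 99.6 and 107 RPKM. Its relative Zeb2 had 72.03, 80.02 and 84.5 RPKM. Id3 varied by less than Bhlhe40 between libraries. The mesenchymal homeobox gene Prrx1 stood at 35.1, 42.02 and 29.5 RPKM and Meox1 at 42.8, 27.4 and 46.1 RPKM, and Twist1 (3.02, 1.95 and 3.999 RPKM) and Twist2 (5.25, 5.26 and 3.06 RPKM) were near the low end. Of 39 HOX cluster genes found, Hoxb3 alone was detected (0.581, 0.939 and 0.444 RPKM), against 57.2% of all named genes. No count in any library was found for 26 of the 39, against 21.1% of all named genes.

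All 4 genes of the nuclear factor I family were well measured, against 35.2% of all named genes. The family member Nfia stood at 156, 157 and 173 RPKM. Its relative Nfix was measured at 112, 117 and 114 RPKM. All 3 Ebf genes were as well: Ebf2 stood at 80.9, 68.9 and 84.5 RPKM, Ebf1 at 56.7, 64.2 and 85.6 RPKM and Ebf3 at 24.3, 29.5 and 26.1 RPKM. The listed gene Zfp36l1 reached 349, 420.1 and 358 RPKM. It encodes an RNA-binding rather than a DNA-binding protein. Of the signal transducers, Stat3 stood at 73.5, 85.04 and 76.99 RPKM, Wwtr1 (TAZ) at 60.7, 58.4 and 61.4 RPKM and its relative Yap1 at 19.9, 14.6 and 13.8 RPKM, and the TGF-beta mediators Smad2 and Smad3 at 20.6, 21.8 and 23.2 RPKM and 21.5, 20.02 and 16.1 RPKM. Among nuclear receptors, Nr3c1, the glucocorticoid receptor, stood at 32.97, 33.8 and 38.4 RPKM.

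**Figure D4:**
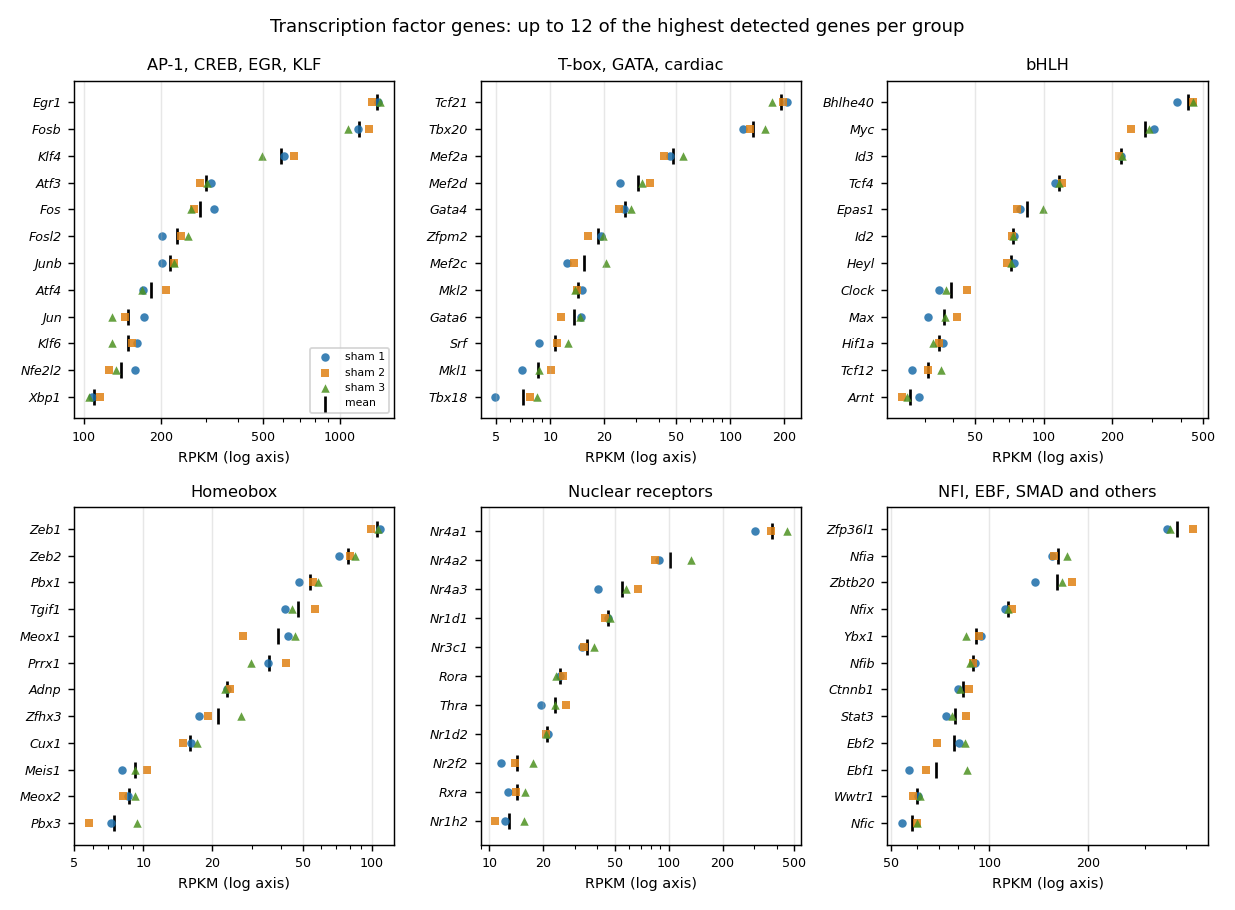
RPKM (log axes) of transcription factor genes in 6 groups, up to 12 detected genes per group, with a point for each sham library and a black bar at the mean. Egr1, Fosb and Klf4 lie above the other AP-1, EGR and KLF genes, Tcf21 and Tbx20 above the other cardiac factors, and Nr4a1 above the other nuclear receptors.

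Ion channel and detoxification genes completed the profile. The sodium channel Scn7a had 153, 178 and 189 RPKM. The KATP channel subunit Abcc9 stood at 152, 132 and 193 RPKM. Kcnj8, its pore partner, stood at 56.00, 59.9 and 87.99 RPKM, and all 3 libraries kept Abcc9 above Kcnj8. Connexin 43 (Gja1) was measured at 90.1, 120.1 and 125 RPKM. Of 25 channel genes compared, 20 were highest in sham 3, against 2068 of all 5447, and 5 were past 2-fold (20%, against 2.86% of all). The glutathione transferase Gstm1 reached 727, 722 and 645 RPKM. The secreted glutathione peroxidase Gpx3 had 658, 597 and 594 RPKM. Metallothionein 1 (Mt1) stood at 571, 478 and 656 RPKM. Aldh1a2, which makes retinoic acid and also marks epicardium, stood at 74.3, 67.4 and 78.03 RPKM.

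Markers of other cell types differed widely in level. All 14 pericyte markers were detected, against 57.2% of all named genes. The pericyte G protein regulator Rgs5 was measured at 546, 486 and 894 RPKM. The list summed to 3457, 3228 and 4773 CPM, highest in sham 3, and Abcc9, Kcnj8 and Pdgfrb belong to it. All 12 smooth muscle markers were detected, against 57.2% of all named genes, summing to 555, 667 and 1467 CPM. Smooth muscle actin (Acta2) reached 82.1, 98.1 and 209 RPKM. Smooth muscle myosin (Myh11) had 23.1, 24.00 and 69.5 RPKM. Sham 3 was more than 2-fold above sham 1 for both. Cardiomyocyte markers were detected in 14 of 17 cases (82.4%, against 57.2% of all named genes), summing to 620.1, 888 and 1104 CPM, lowest in sham 1. Atp2a2, a calcium pump that cells other than muscle also make, held 387, 432 and 504 CPM of these sums. Cardiac actin (Actc1) stood at 29.4, 75.6 and 78.99 RPKM. Alpha myosin heavy chain (Myh6) was measured at 1.98, 5.06 and 8.47 RPKM. Epicardial and mesothelial markers summed to 459, 539 and 764 CPM, in the same library order. The mesothelial protein Upk3b reached 15.2, 23.2 and 35.7 RPKM.

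Most listed leukocyte and adipocyte genes were near or at the floor. Ptprc (CD45) and Cd3e had no count in any library. Macrophage markers were detected in 4 of 15 cases (26.7%, against 57.2% of all named genes). They summed to 72.95, 24.1 and 25.3 CPM, with Lyz2 high in sham 1 alone (28.6, 2.96 and 1.60 RPKM). The mean of these sums was 40.8 CPM, and 24.7 CPM without sham 1. Endothelial markers were detected in 8 of 17 cases (47.1%, against 57.2% of all named genes), and 3 were well measured. They summed to 252, 328 and 373 CPM, with Tek and Fabp4 (24.00, 43.1 and 51.4 RPKM) as the highest members. Of 8 adipocyte markers 1 was detected (12.5%, against 57.2% of all named genes), and it was Fabp4, which is on both lists. Adipoq and Lep had no count. Schwann and neural markers were detected in 10 of 13 cases (76.9%, against 57.2% of all named genes). Their sums were 262, 303 and 320 CPM. Prnp was the highest of them at 38.6, 49.1 and 42.4 RPKM, followed by Cdh19 at 15.6, 11.8 and 15.4 RPKM. Prnp alone held 82.2, 104 and 90.2 CPM of these sums. The Schwann marker Sox10 was low, at 1.92, 2.08 and 2.50 RPKM. Of 37 genes of the G2 and M phases 15 were detected (40.5%, against 57.2% of all named genes) and 1 was well measured. It was Mki67, at 1.56, 1.68 and 5.40 RPKM, highest in sham 3. Of 30 S phase genes 19 were detected (63.3%) and 6 were well measured (20%, against 35.2% of all named genes), and the highest was the replication clamp gene Pcna at 64.8, 61.5 and 50.1 RPKM.

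The spread between the 3 libraries was set beside counting error in 5447 named genes with a mean of at least 20 CPM. The median coefficient of variation, taken per gene from 3 libraries, was 12.1%, and the median value expected from counting alone was 9.41%. A median of values taken from 3 libraries runs low, so these percentages are only roughly comparable. The highest library was within 1.2 times the lowest in 36.0% of genes. edgeR's intercept-only fit gave a biological coefficient of variation of 13.7% over the 15608 rows with a mean of at least 1 CPM, scaled by TMM. No library repeated another, by the chi-square of their counts, whose mean over genes is near 1 per degree of freedom for counting error alone. That mean was 5.28 for sham 1 and sham 2, 7.05 for sham 1 and sham 3 and 4.24 for sham 2 and sham 3. Single genes weigh heavily in such a mean: over all 3 libraries Col1a1 had 832 per degree of freedom, while the median gene had 1.87. Log2 CPM of these genes correlated at Pearson's 0.967 to 0.974 across genes, which share their libraries and are not independent replicates.

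In 156 genes (2.86%) the highest library was at least 2-fold over the lowest. Sham 3 was the highest in 96 of them and sham 1 the lowest in 99. Over all 5447 genes, sham 3 was the highest in 2068 and sham 1 the lowest in 2431. The library sums behind CPM include numbered rows, whose share was highest in sham 1 (22.7%, 19.8% and 19.7%). The median ratio of a gene's CPM to its 3-library mean was 0.963, 1.02 and 1.01. Library orders that rest on small differences were not checked against this shift. Without sham 3 the count of genes past 2-fold was 46 of 5437, without sham 1 it was 65 of 5517, and without sham 2 it was 116 of 5429. By group, 6 of 7 smooth muscle markers, 4 of 7 cardiomyocyte markers, 4 of 6 epicardial and mesothelial markers and 3 of 12 pericyte markers compared were past 2-fold. Myosin light chain kinase of smooth muscle (Mylk) had 106, 157 and 361 CPM. The cardiac calcium store protein Casq2 stood at 27.7, 46.6 and 83.8 CPM. Megalin (Lrp2), an endocytic receptor, was measured at 12.2, 28.3 and 43.6 CPM. The laminin receptor Bcam reached 17.5, 34.04 and 58.5 CPM. The olfactory receptor gene Olfr558 had 30.6, 44.5 and 113 CPM. All 5 had sham 3 highest and sham 1 lowest. The widest spread was that of ORF63, at 39.9, 18.3 and 118 CPM, followed by Pcp4l1, at 27.2, 14.1 and 66.9 CPM. The part of other cell types in these differences was not tested.

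Sham 1 led another set. The membrane metalloprotease Adam12 stood at 65.2, 14.7 and 15.4 CPM. The value in sham 1 was 4.44 times the lowest, and counts were 134, 28 and 31. Clu (66.1, 20.4 and 31.7 CPM), Il33 (194, 62.8 and 95.6 CPM), Sfrp2 (133, 57.1 and 81.8 CPM) and Igfbp3 (87.1, 42.4 and 53.03 CPM) were also highest there, and so was Col1a1. Ribosomal protein genes were highest in sham 1 in 24 of 30 cases, against 1334 of all 5447 genes, and lowest in sham 3 in 26, against 1600 of all, with a median of 1.14 times the 3-library mean in sham 1 and 0.858 times in sham 3. Of the 156 genes, sham 1 led 32 and sham 2 led 28, while over all 5447 genes sham 1 led 1334 and sham 2 led 2045. The 28 included Efnb2 (9.24, 29.3 and 26.8 CPM), Hmox1 (128, 174 and 77.3 CPM) and Col18a1 (12.2, 27.8 and 22.8 CPM). The fibroblast markers other than Col1a1 stayed within 2-fold.

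**Figure D5:**
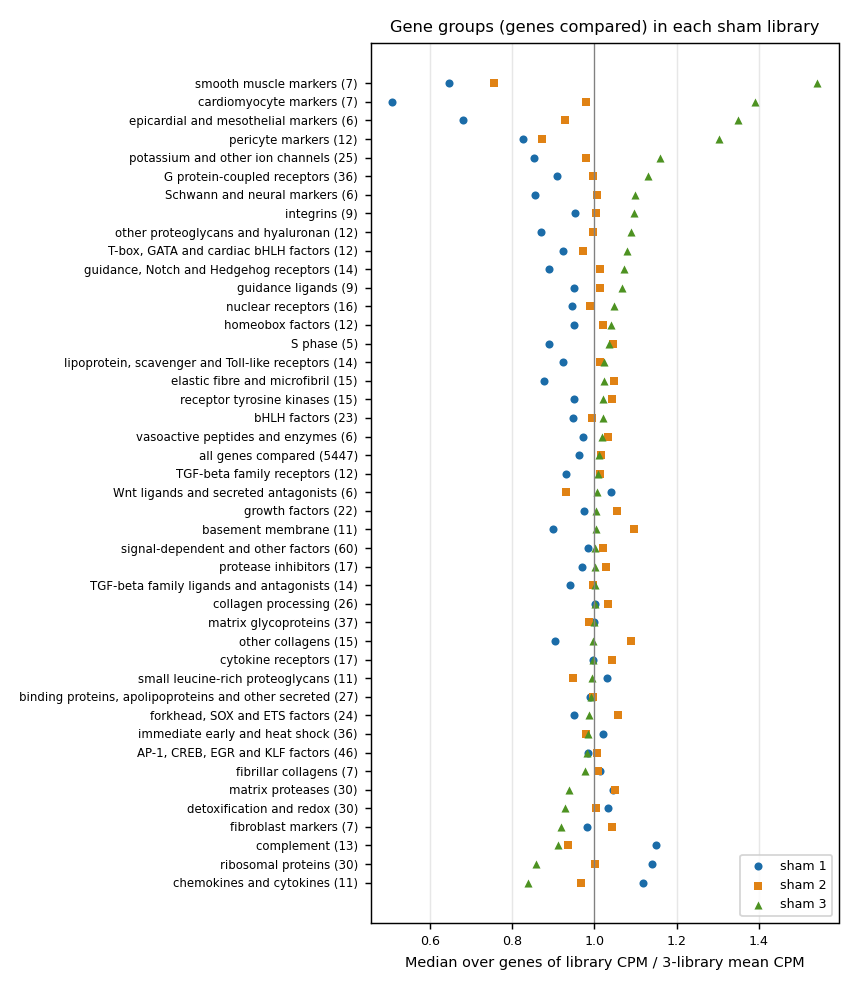
For each group of at least 5 genes compared (number in brackets), the median over its genes of the CPM in a library divided by the mean CPM of the 3 libraries, with 1 point per sham library. Smooth muscle, cardiomyocyte, mesothelial and pericyte markers have sham 3 to the right, at medians of 1.54, 1.39, 1.35 and 1.30, while chemokines, ribosomal proteins and complement have sham 1 to the right, and the groups of transcription factors lie between 0.923 and 1.08.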

How the data were processed

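RNA of Thy1+HE- heart cells was sequenced as single reads of 50 bases, per the labels' protocols. The authors' read counts per row came from NextGENe 2.3.3, a program named in the file headers. Build mm10 and Partek 6.6 are listed in the submitters' processing notes, with no role given. The deposited RPKM equals the count over the row's length times 1 constant per library. Highest and mean coverage along each row are deposited signal values and were used only to check evenness. The file headers give 6831001 to 8895414 reads per sham library, and counts on rows summed to 1909337 to 2056097. The library kit does not mark strand, and 50.6% of the counts of sham 2 and of sham 3 were forward reads, so reads of overlapping genes cannot be told apart.

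Rows with the same symbol were summed, leaving 26458 symbols, 7327 of them only a number after LOC or EG. CPM is the count over the library's sum on rows. Of 1732 listed symbols, 1697 matched a row, 40 of them through a hand-written alias and 64 through a unique synonym in the RefSeq table of GRCm38.p6. The members and the 53 gene lists were chosen with earlier results of these data known. Named genes were the 30 with the highest mean RPKM, the 6 highest detected members of each list of matrix, receptor, ligand, secreted, factor, channel and detoxification genes, all collagens, receptor tyrosine kinases and cell type markers, their ligands, and the 20 with the widest spread. Further list members, among them Kera, Loxl4, Tnc, Cd44, Cxcr4 and Hoxb3, and the genes highest in sham 1 or sham 2, were chosen after their values were seen. With 3 libraries of 1 group there was no group test. TMM factors and dispersion came from edgeR 4.0.16 in R 4.3.3, and DESeq2 1.42.0 gave other size factors. The spread measure was tested on simulated data. Plots used matplotlib 3.10.9. A few genes are not reported here.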

Additional observations from a re-analysis of the deposited data

How the results depend on the processing

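The counts of detected and of well measured genes, the share of counts on the 100 genes with most counts and the 30 genes ranked highest by RPKM kept their values within 1.5 times under all planned settings that were run. With exon lengths of the reference annotation, 25 of the 30 ranked genes remained among the 30 highest. The number of genes with a spread of at least 2-fold, 156, depended on the level required: it was 438 at a mean of at least 10 CPM, 42 at 50 CPM and 13 at 100 CPM. Leaving out 1 library gave 46 to 116 genes, from 2 libraries in place of 3. Including numbered rows, a setting added after seeing the data, gave 168. TMM scaling and DESeq2 size factors moved none of the 53 list sums and none of 224 levels of named genes by more than 1 SD. The factors were 0.974, 1.02 and 1.01 for TMM and 1.01, 0.980 and 1.02 for DESeq2. Factors so near 1 can hardly move a mean of 3 libraries, so little follows from this. Which library was highest or lowest for a named gene was not checked under them. Leaving out 1 of 3 libraries cannot move a mean by 1 SD, so the ratio was used there. It was over 1.5 times for 2 of 53 lists and 1 of 224 genes. Without sham 1 the macrophage and myeloid sum went from 40.8 to 24.7 CPM, and without sham 3 the erythroid sum went from 6.99 to 3.80 CPM and the natriuretic peptide receptor gene Npr3 from 12.2 to 7.37 CPM. Omitting numbered rows from the library sum moved 211 of these 224 levels, since it scales every gene up by the same factor per library. Shares of counts and shares of summed RPKM differed by more than 1 SD for 46 of 53 lists, which follows from gene length. No paired analysis was possible because the libraries belong to 1 group and no result comes from a test. A gene under 3 counts in a library, or 1.46 to 1.57 CPM, was not measurable at this depth.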
